A study of Mus musculus with 2 samples.

Results

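The nuclear genes for the subunits of oxidative phosphorylation were described here in the mouse colon and small intestine. Members were taken by gene symbol and not by any measured value. They were the genes named Ndufa, Ndufb, Ndufc, Ndufs or Ndufv with a number, Sdha to Sdhd, Uqcr, Cox4 to Cox8 and Atp5, without the assembly factors. This gave 81 of the 18194 genes named on the arrays, of which 33 belonged to complex I, 4 to complex II, 8 to complex III, 19 to complex IV and 17 to the ATP synthase. Total RNA from a biopsy of each tissue of wild-type adult mice had been labelled with biotin and hybridised to Affymetrix GeneChips, arrays of short oligonucleotide probe sets that mostly lie near the 3' end of a transcript. There was 1 array for the colon and 1 for the small intestine, so no difference has a replicate check, no test was made and every count below is a description of these 2 arrays. For its sequencing the study used jejunum and distal colon, and the labels of the arrays do not say which part of the intestine was sampled or how many mice were used.

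Oxidative phosphorylation makes most of the ATP of an aerobic cell. Complex I takes electrons from NADH and complex II takes them from succinate, ubiquinone carries them to complex III, cytochrome c carries them on to complex IV, and oxygen is reduced there. Complexes I, III and IV pump protons across the inner mitochondrial membrane, and the ATP synthase uses the return of these protons to make ATP. Most subunits are encoded in the nucleus, and a few, among them the catalytic ones of complex IV, in mitochondrial DNA. For some subunits of complex IV the genome holds a general form and a second form limited to tissues such as striated muscle or testis. In the intestine the absorbing and ion-transporting epithelium and the muscle of the wall all depend on this ATP.

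Levels are log2 expression values and differences are those of the small intestine minus the colon, on the log2 scale. A level of 5 was taken as background, and values below it were raised to 5 before a difference was taken. The brightest of the probe sets of a gene stands for it. Levels of different probe sets are not on a common scale, so only the arrays are compared, gene by gene. In a pair of levels that of the small intestine comes first. Of 10 epithelial markers all were above background on both arrays, but their differences went both ways. They were positive for 6 and negative for 4, from -0.89 for Cdx1 to 1.60 for Vil1, with a median of 0.30. Epcam had 14.64 in the small intestine against 14.27 in the colon. All 8 measured markers of the exocrine pancreas were at least 3-fold higher on the colon array, by a log2 difference between -4.96 and -8.95. For all of them but Prss2 this is a lower bound of its size, since the small intestine was below background. Of the 4 RNA spike-ins added before labelling, the probe sets at the 5' end differed by -1.07 to -2.69, whereas those at the 3' end differed by -0.04 to 0.51. The part that these signals have in the differences below was not tested.

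Most of the subunit genes, 65 of 81, differed by less than 1.5-fold between the tissues. Of the 81 genes, 74 were above background on both arrays and 7 on neither. Only Cox7a1, a subunit of complex IV known from striated muscle, was over 2-fold higher in the small intestine, where 6.95% of all named genes were, and only the complex I subunit Ndufa6 was over 2-fold higher in the colon, where 8.14% were. Cox7a1 was also the only member past 3-fold in either direction, against 6.78% of all named genes. Uqcrc1, with a difference of 0.99, lay just short of 2-fold and Ndufa6, with -1.02, just past it. These counts depend on the processing, with 1 to 3 genes past 2-fold in the small intestine and 0 to 4 in the colon under other scalings and choices of probe set. The median difference over the 81 genes was 0 and that of all 18194 genes was 0 too.

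The subunit genes are mostly bright, and many genes on the array are not expressed, so the counts were also set beside narrower backgrounds. Among the 11016 genes above background on either array, 11.5% were over 2-fold higher in the small intestine, 13.4% were so in the colon and 11.2% passed 3-fold. At a lower limit of 1.5-fold, the small intestine had 7 members on its side and the colon 9, beside 20.7% and 25.0% of these genes. A mean level of at least 10 was reached by 70 members and by 2160 genes in all. Of these 70 members, the small intestine was over 1.5-fold higher for 6 and the colon for 7, where the shares of all 2160 genes were 19.4% and 25.8%. For 2-fold the shares of the 2160 genes were 10.5% and 13.5%, and for 3-fold in either direction 10.9%, each beside 1 of the 70 members. The 70 members had a median absolute difference of 0.29 (1.22-fold) and the 2160 genes one of 0.51 (1.43-fold). Within 1.5-fold lay 57 of the 70 members (81.4%) and 1183 of the 2160 genes (54.8%).

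**Figure D1:**
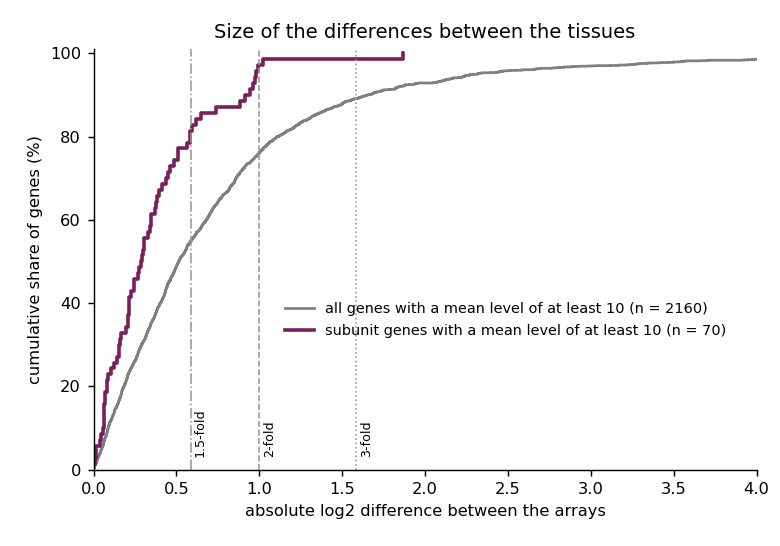
The horizontal axis is the absolute log2 difference between the 2 arrays and the vertical axis the cumulative share of genes, for the 70 subunit genes (purple) and all 2160 genes (grey) with a mean level of at least 10. Vertical lines mark 1.5-fold, 2-fold and 3-fold. At 1.5-fold the purple line has reached 81.4% and the grey line 54.8%.

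Complex I, the NADH dehydrogenase, had more members on the colon side. Of its 33 genes, 22 had a negative difference, 10 a positive one and 1 was at background on both arrays. Of the 2160 bright genes, 1202 had a negative difference and 958 a positive one. The 33 genes had a median of -0.20, where the 2160 bright genes had a median of -0.095. The median of complex I was 0.0077 after the arrays were centred on the hybridization spike-ins, and -0.043 with the median over the probe sets of a gene, so this direction depends on the processing. Ndufa6, an accessory subunit, had 12.35 in the small intestine against 13.37 in the colon, which is 2.03-fold higher in the colon. Of the subunits that carry electrons, Ndufs1, which holds iron-sulfur clusters, had 11.32 in the small intestine against 12.28 in the colon. Ndufs7, which binds the last cluster of the chain, had 12.72 and 13.64. Both were thus 1.9-fold higher in the colon (differences of -0.96 and -0.92). A second probe set of Ndufs7 had 9.69 and 9.75, a difference of -0.062. Ndufs3, another core subunit, differed by -0.58, with 11.00 in the small intestine against 11.58 in the colon. Ndufv2 differed by -0.37, and Ndufv1, which binds NADH, had levels of 12.74 and 12.66 and differed by 0.09. The 3 probe sets of Ndufv1 had differences of 0.04 to 0.54. Ndufs8 was also on the small intestine side, with 12.45 in the small intestine, 11.99 in the colon and a difference of 0.45. Over the 6 core subunits measured the median was -0.48, and over the 27 accessory subunits it was -0.12.

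By name, 9 of 11 Ndufa genes and 5 of 6 Ndufs genes had a negative difference, as had 1202 of the 2160 bright genes. The 11 Ndufb genes, which belong to the membrane arm, were split into 5 negative, 5 positive and 1 at background. The largest differences among the Ndufb genes were those of Ndufb11 in the colon (13.17 and 14.05, a difference of -0.88) and of Ndufb5 in the small intestine (13.73 and 13.08, a difference of 0.65). Ndufb1 was dim, with 6.12 in the small intestine against 5.52 in the colon. The probe set listed for Ndufb4 alone lay at background, at 2.19 and 2.47. A brighter probe set that is listed for Ndufb4 together with its copies Ndufb4b and Ndufb4c had 11.94 and 12.35, and it was left out because it names several genes. For the same reason Ndufa11 and Ndufs6 had no value of their own.

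Complex II, succinate dehydrogenase, was the only complex with all its members on the small intestine side, with a median of 0.34. This median ran from 0.067 to 0.59 under other scalings and choices of probe set. Sdha, the flavoprotein that oxidises succinate, had 12.38 in the small intestine against 12.32 in the colon, and the iron-sulfur protein Sdhb had 12.83 and 12.76. The membrane anchors differed more. Sdhc had 10.62 in the small intestine against 9.88 in the colon (a difference of 0.74) and Sdhd had 11.72 and 11.10 (0.62). The second probe set of each anchor did not show this, with 7.73 on both arrays for Sdhc, and 10.85 and 10.84 for Sdhd.

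Complex III, the cytochrome bc1 complex, had 4 genes on each side, with differences from -0.98 to 0.99. Its median was 0.027, and -0.22 with the median over the probe sets of a gene. Uqcrc1, a core protein of the part that faces the matrix, had 12.85 in the small intestine against 11.87 in the colon. Its partner Uqcrc2 had 15.10 and 15.04, a difference of 0.06, but its second probe set had 12.62 and 13.28, a difference of -0.66. These proteins assemble together. In the other direction, the small subunit Uqcr10 had 10.62 in the small intestine against 11.60 in the colon, a difference of -0.98. All 3 probe sets of Uqcr10 were on the colon side, with differences of -0.98 to -1.05. Uqcrh, the hinge protein beside cytochrome c1, differed by -0.59. Uqcrfs1, the Rieske iron-sulfur protein, differed by -0.21, with 12.62 in the small intestine against 12.83 in the colon. Uqcrq differed by 0.35, and Uqcrb by 0.06 with its brightest probe set and by -0.52 with the other. Cyc1, which encodes cytochrome c1 and is outside the symbols taken here, had 13.49 in the small intestine against 13.58 in the colon. Ndufab1, the acyl carrier protein found in complex I, was outside them too, with 12.86 and 13.08.

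By the brightest probe sets, the ATP synthase had the smallest differences, with 12 of its 17 genes within 1.2-fold and a median of 0.06. The F1 part, which holds the catalytic sites, was represented by 5 genes. Of these, Atp5a1 had 13.06 in the small intestine against 13.02 in the colon, and Atp5b had 13.27 and 12.93. Atp5d had 12.81 and 12.65, and Atp5e had 12.27 and 12.12. These 4 had differences from 0.04 to 0.34. A second probe set of Atp5d had 12.11 and 11.27, a difference of 0.83. The remaining gene of F1, Atp5c1 of the central shaft, was on the colon side, with 13.82 in the small intestine against 14.38 in the colon. Its second probe set was dimmer, with 5.70 and 7.56, a difference of -1.86. Of the genes of the peripheral stalk, Atp5j differed by -0.46 and Atp5o by 0.24. A second probe set of Atp5o had 12.82 and 11.45, a difference of 1.37. Atp5k, a small membrane subunit, had 13.63 in the small intestine against 12.69 in the colon. By the brightest probe sets, this was the largest difference of the complex in favour of the small intestine (0.94). Its 3 probe sets had differences of 0.32 to 0.94.

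The rotating ring of subunit c is encoded by 3 genes, whose mature products are known to be the same protein. Their differences were unlike in sign and size. Atp5g2 had 10.10 in the small intestine against 11.08 in the colon, a difference of -0.98. Atp5g1 had 11.46 and 11.67 (-0.21), and Atp5g3 had 14.59 and 14.43 (0.16).

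**Figure D2:**
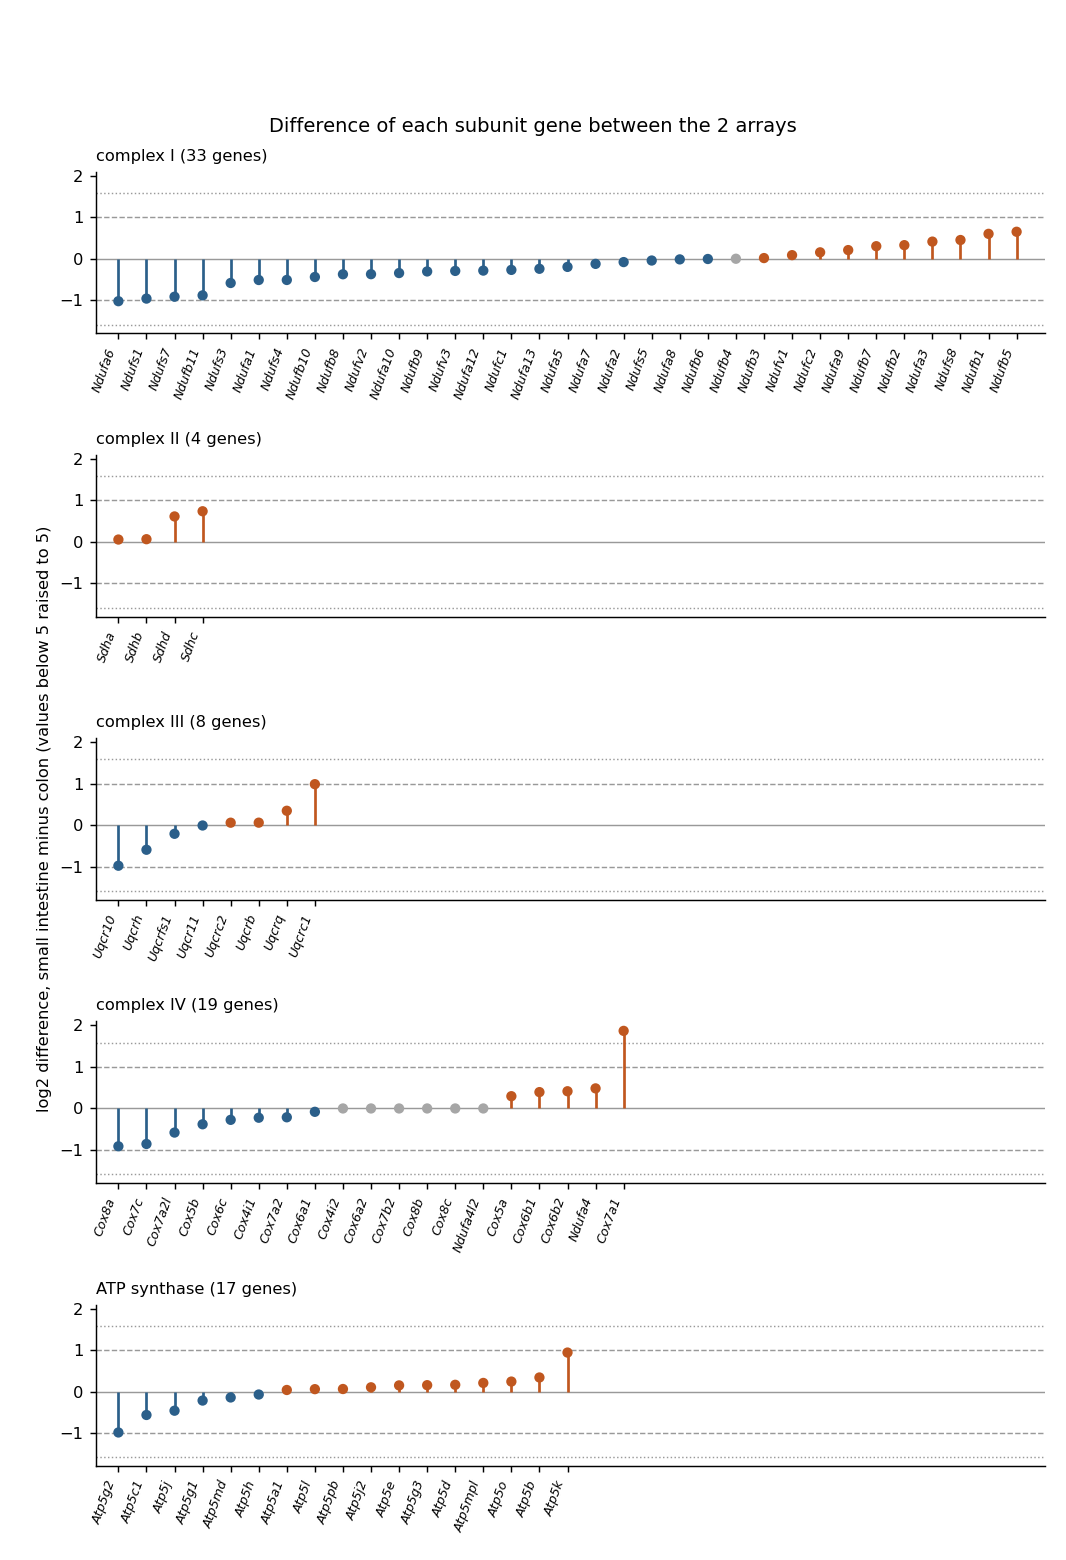
Each point is 1 subunit gene, placed by its small intestine level minus its colon level (log2), in a panel for each complex. Orange marks genes higher in the small intestine, blue those higher in the colon and grey those at background on both arrays, with dashed lines at 2-fold and dotted lines at 3-fold. Cox7a1 is the only point past the dotted lines, and all 4 points of complex II lie above 0.

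In complex IV, cytochrome c oxidase, the largest difference was that of a tissue form. Ndufa4, which was named for complex I, is counted here because its protein was later found in complex IV, and its relative Ndufa4l2 is kept beside it. Of the 8 forms limited to some tissues, 6 were at or below background on both arrays and 2 were above it. The 6 general forms measured beside them were above background in both tissues, and Cox7b was not analysed here.

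Cox7a1, the form of subunit 7a known from heart, skeletal muscle and brown fat, had 11.99 in the small intestine against 10.12 in the colon. It was 3.65-fold higher in the small intestine (a difference of 1.87). Its general counterpart Cox7a2 had 14.17 in the small intestine against 14.38 in the colon, a difference of -0.21, and the second probe set of Cox7a2 also lay on the colon side, at -0.43. Cox7a2l, a relative that joins complexes III and IV, had 12.21 and 12.79, and its 3 probe sets had differences of -0.58 to -0.75. Within the 7a family, Cox7a1 was thus the only gene higher in the small intestine, except that Cox7a2 had a difference of 0.037 after centring on the hybridization spike-ins. Cox7a1 was measured by 1 probe set, so that its value has no second reading.

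Fewer cells of a type and less RNA per cell cannot be told apart in such tissue. Lists of cell types that are known for Cox7a1, or that lie in the wall, therefore stand beside it. Of 16 markers of striated muscle, 3 were above background on either array. These were Acta1, an actin (5.61 and 4.33), Mylpf, a myosin light chain (5.61 and 5.16), and Ckm, a creatine kinase (5.37 and 5.72). The log2 of their summed linear values over the 16 was 8.25 in the small intestine against 7.97 in the colon, and the defining genes Myh2, Myh4, Actn3, Tnnt3 and Atp2a1 lay at background on both. Of 7 measured adipose markers, 4 were above background on either array, with summed levels of 9.64 and 9.12. Such sums join probe sets that are not on a common scale, and their brightest members weigh most. Among these, Adipoq had 6.41 in the small intestine against 6.97 in the colon, Retn 4.80 and 5.50, Pnpla2 8.38 and 8.37, and Cidec 8.23 and 4.69. Only Cidec was thus clearly higher in the small intestine, and its colon level was below background. Cidea was at background on both arrays, as were Ucp1, the uncoupling protein of brown fat, and its relative Ucp3. All 10 smooth muscle markers were above background, with summed levels of 13.65 in the small intestine against 14.78 in the colon and a median difference of -1.65. Of these, 9 were higher in the colon and Lmod1 was higher in the small intestine (a difference of 0.71). Of 11 markers of pericytes and endothelium, 8 were above background on either array, with summed levels of 11.81 and 12.07. The part of these cells in the level of Cox7a1 was not tested.

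The other restricted forms gave little signal. Cox6b2, the testis form of subunit 6b, had 5.45 in the small intestine against 5.04 in the colon, just above background, and its general form Cox6b1 had 14.43 and 14.04. Cox6a2 and Cox8b, which like Cox7a1 are forms of striated muscle, were at background on both arrays, with 4.19 and 3.95 for Cox6a2 and 3.19 and 3.18 for Cox8b. Thus of these 3 muscle forms 1 was bright in both tissues and the others were not above background in either. Their general forms were Cox6a1, with 15.23 in the small intestine against 15.31 in the colon, and Cox8a, with 9.14 and 10.05. Cox8a, with a difference of -0.91, was 1.88-fold higher in the colon. Cox4i2, known from lung and from cells short of oxygen, had 3.20 and 3.18, whereas Cox4i1 had 14.03 and 14.26. Ndufa4l2, known to be induced by hypoxia, had 2.30 in the small intestine against 2.06 in the colon, and Ndufa4 had 12.07 and 11.59. Of 13 hypoxia targets, all above background on both arrays, 10 were on the colon side, as were 5864 of the 11016 genes above background. Their median was -0.65, and the largest difference was that of the glucose transporter Slc2a1 (8.92 in the small intestine against 11.94 in the colon). Hk2, a hexokinase, also passed 3-fold in the colon (8.88 and 10.47). Past 3-fold were thus 2 of the 13, beside 11.2% of the 11016 genes in either direction. On the other side, Pdk1, a kinase that inhibits pyruvate dehydrogenase, had 10.14 and 9.06, and the lactate dehydrogenase Ldha 13.10 and 12.59. After centring on the hybridization spike-ins, 8 of the 13 were on the colon side. The part of hypoxia in these differences was not tested. The testis forms Cox7b2 and Cox8c were at background as well, with levels of 2.51 to 3.38. None of 9 markers of male germ cells was above background on both arrays.

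Among the remaining subunits of complex IV, Cox7c was dim and on the colon side, with 6.97 in the small intestine against 7.82 in the colon. Cox5a had 14.88 and 14.59, Cox5b 14.09 and 14.47, and Cox6c 13.68 and 13.96. Over all 19 genes the median was 0.

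**Figure D3:**
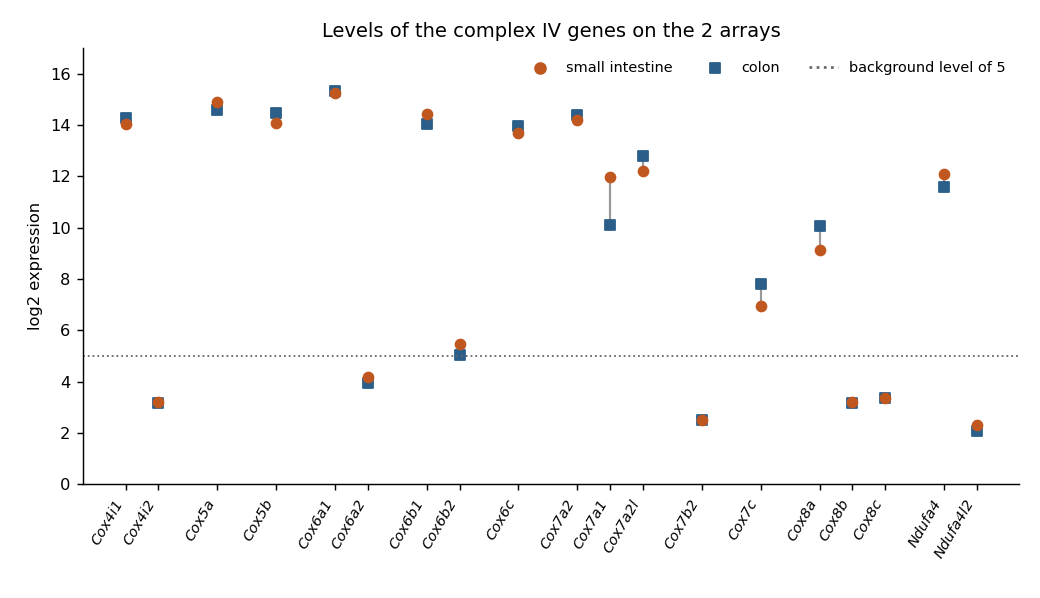
Log2 expression of each complex IV gene on the small intestine array (orange circles) and the colon array (blue squares), with forms of the same subunit side by side and a dotted line at 5, taken as background. Cox7a1 lies at 11.99 and 10.12, while Cox4i2, Cox6a2, Cox7b2, Cox8b, Cox8c and Ndufa4l2 stay below the line on both arrays.

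Different probe sets of a gene give the only repeated readings in these data. Of the 81 genes, 43 had at least 2 probe sets above background, 107 in all, and the pooled SD of their differences within a gene was 0.37, beside 0.60 over the 4142 such genes of the array. This spread describes probes and not mice, and the median absolute difference over the 81 genes was 0.27. In 16 of the 43 genes the probe sets had differences of both signs. In 4 genes they lay over 1 apart. Ndufs4 had 10.08 in the small intestine against 10.59 in the colon with its brightest probe set, but differences of -1.03 to 0.61 over all 4. Ndufb5 had differences of -0.57 and 0.65, Atp5o of 0.24 and 1.37, and Atp5c1 of -1.86 and -0.56. Of the 16 members past 1.5-fold, 6 had 1 probe set above background, 7 had probe sets all of 1 sign and Ndufb5 had both signs. In Sdhc and Sdhd the second probe set differed by 0 when rounded to 2 decimals.

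**Figure D4:**
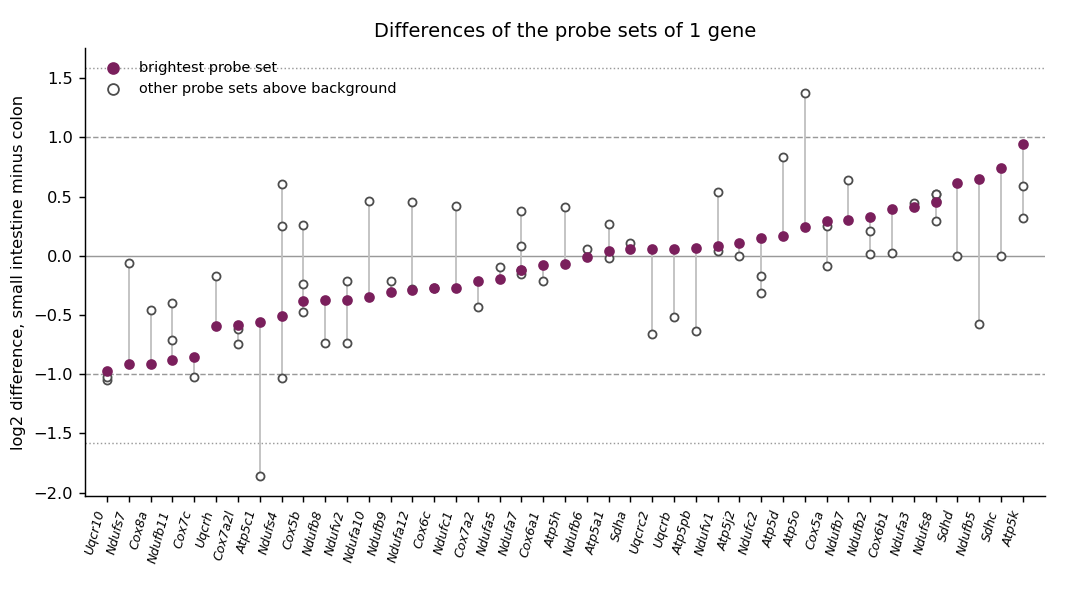
Each column is 1 of the 43 subunit genes with at least 2 probe sets above background, and the vertical axis is the small intestine level minus the colon level (log2). Filled points are the brightest probe set of a gene and open points its others. Atp5c1 spans from -1.86 to -0.56 and Ndufb5 from -0.57 to 0.65.

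Some other genes of the pathway passed 2-fold. Gpd2, the glycerol phosphate dehydrogenase that passes electrons from the cytosol to ubiquinone, had 11.77 in the small intestine against 9.48 in the colon. It was 4.89-fold higher in the small intestine, and the 3 of its 4 probe sets that were above background all gave differences of at least 1.61. Of the 15 electron carriers and entry points measured, Gpd2 alone passed 2-fold, and cytochrome c (Cycs) had 14.06 and 13.95. In the TCA cycle, which supplies the electrons, 2 of 12 genes were over 2-fold higher in the small intestine, beside 11.5% of the 11016 genes above background, namely Dlst (3.30-fold) and Ogdh (2.23-fold). Both encode parts of the 2-oxoglutarate dehydrogenase complex, whose remaining part, Dld, was 1.80-fold higher in the colon (10.27 and 11.12). Suclg2, a subunit of the succinate-CoA ligase that follows it, was 2.20-fold higher in the colon. It was the 1 gene of the 12 past 2-fold there, beside 13.4% of the 11016 genes. Of the other ligase subunits, Sucla2 was 1.63-fold higher in the small intestine (14.22 and 13.51) and Suclg1 1.40-fold higher in the colon (12.83 and 13.32). The median of the TCA list was 0.06.

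The assembly factors of complex I were mostly on the colon side. Of 16 measured, 14 had a negative difference, as had 5864 of the 11016 genes above background. Of the 16, 4 were over 2-fold higher in the colon, beside 13.4% of those genes, and none was as much higher in the small intestine, beside 11.5%. The median was -0.65, and -0.41 after centring on the hybridization spike-ins. Those past 2-fold were Foxred1 (6.65 in the small intestine against 7.91 in the colon), Ndufaf2 (8.24 and 9.44), the iron-sulfur protein Nubpl (7.88 and 8.96) and Ndufaf7 (7.27 and 8.33). Of 10 factors for complexes II and III, 8 had a negative difference (6 after spike-in centring) and Sdhaf4, a factor for Sdha, was 2.64-fold higher in the colon. The 20 factors of complex IV were split evenly, with a median of 0.029. Of the 20, 2 were over 2-fold higher in each tissue, beside the same 13.4% for the colon and 11.5% for the small intestine. Surf1 (2.85-fold) and Coa6 (2.00-fold) were higher in the colon, and Coa7 (2.86-fold) and the copper chaperone Sco2 (2.68-fold) in the small intestine. Of 4 genes for assembly and inhibition of the ATP synthase, the assembly factor Atpaf2 was 2.23-fold higher in the small intestine (6.92 and 5.77). The inhibitor, Atpif1, had 13.86 in the small intestine against 13.21 in the colon.

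The coactivators that drive mitochondrial genes went in opposite directions. Ppargc1a had 9.47 in the small intestine against 8.23 in the colon (2.36-fold), and Ppargc1b had 8.02 and 9.52 (2.83-fold higher in the colon). The other 12 genes in the list of transcription regulators did not pass 2-fold. Esrra, a partner of these coactivators, had 7.95 and 7.05, and Tfam, which maintains mitochondrial DNA, differed by -0.20. Of 14 genes used as a measure of mitochondrial content, Vdac3 (2.06-fold) and Timm23 (2.06-fold) were higher in the colon, and Tomm20 had 13.71 and 13.65, with a median of 0.05 for the list. The 6 probe sets of Tomm20 disagreed, with differences from -1.16 to 0.67. The subunits encoded in mitochondrial DNA were not named in the probe table and were not analysed here.

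**Figure D5:**
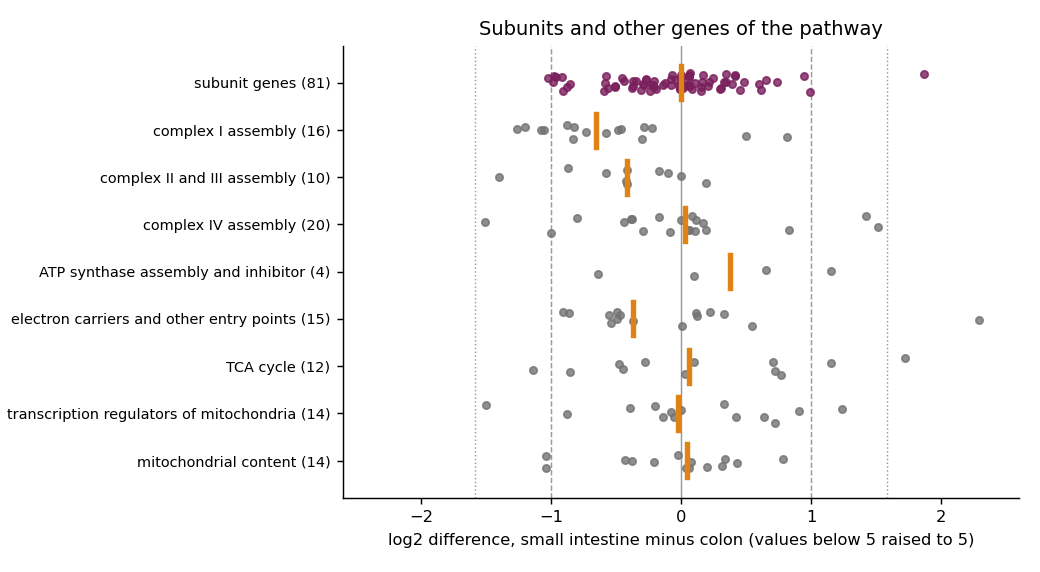
Each point is 1 gene, placed by its small intestine level minus its colon level (log2), for the 81 subunit genes (purple) and 8 lists of other genes of the pathway (grey), with the number of genes in brackets. Orange bars are medians, dashed lines mark 2-fold and dotted lines 3-fold. The median of the complex I assembly factors is -0.65, and that of the subunits is 0.

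The start regions of the subunit genes share features that the gene names do not use. RefSeq windows of build GRCm38.p6, each from 250 bases before to 50 after a gene's start, were found for 66 of the 81 genes, 71 windows in all. Their median GC content was 58.3%, and they held a median of 19 CG dinucleotides, where the 32851 windows of all genes had 52.7% and 7. The window of the testis form Cox6b2 held 10 CG against 17 for its general form Cox6b1, and that of Ndufc2, which is no tissue form, held 8. The windows of the muscle forms Cox7a1 and Cox8b also held fewer CG than those of their general forms. They had 7 for Cox7a1 against 20 for Cox7a2, and 2 for Cox8b against 19 for Cox8a. The 30 bases just before the start of these 4 genes are shown for that reason, 5' to 3' on the strand of the gene, with each CG in capitals. They lie at chr7:30184141-30184170 (plus strand), chr9:79759854-79759883 (minus), chr7:140900447-140900476 (minus) and chr19:7217617-7217646 (minus).
Cox7a1: agtgggCGtggcttgggattcccttagggt
Cox7a2: ggtaaggatagcttCGgaggtcCGgaggct
Cox8b: gtgacaggagacagctgcagctctccaccc
Cox8a: ttgtccCGaCGtcatttcCGaaatacttcc

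A set of 5 short motifs of factors known from genes of respiration and of general promoters was searched on both strands, as letters only. The letters GCGCATG, from the motif of NRF1, stood in 16.9% of the member windows and in 3.91% of all windows. CCGGAAG, a core of the ETS family to which GABPA belongs, stood in 23.9% and 8.86%, AAGATGG, from the motif of YY1, in 14.1% and 6.34%, and AAGGTCA, from that of the estrogen-related receptors, in 11.3% and 4.72%. TATAAA stood in 12.7% and 13.6%. The member windows are richer in GC than all windows, so shares of the first motifs are not set beside a like background. The 12 genes with the NRF1 letters had a median difference of -0.011 and included members of both directions. Of these, 4 are shown because they hold Ndufa6 and Atp5g2, higher in the colon, Atp5k, higher in the small intestine, and Cox6a1, which differed by -0.08. The NRF1 letters, on either strand and joined where they overlap, are in capitals. In the order listed, they lie at chr15:82354355-82354384, chr15:102671070-102671099, chr5:108434430-108434459 and chr5:115349101-115349130, all on the minus strand.
Ndufa6: ccgcggtagagCATGCGCattgcagagccc
Atp5g2: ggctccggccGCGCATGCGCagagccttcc
Atp5k: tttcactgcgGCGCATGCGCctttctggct
Cox6a1: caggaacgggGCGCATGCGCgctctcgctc

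The capitals begin 82 bases before the start in Ndufa6, 42 in Atp5g2, 50 in Atp5k and 162 in Cox6a1. The windows of Cox7a1 and Cox7a2 held neither these letters nor the ETS core, and a match of letters does not show that a factor binds.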

How the data were processed

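The authors deposited log2 expression values per probe set of Affymetrix mouse arrays. GCRMA is named in the processing notes and RMA in the methods of the study, each without a version. GCRMA can widen folds of dim probe sets. The sources used here do not state the set of arrays normalized with these. The 45101 probe sets were used as deposited, and 34958 of them had 1 gene in the annotation of the platform and 932 several. All 81 members matched the RefSeq gene table of GRCm38.p6 by Entrez identifier. The brightest probe set by mean over both arrays stood for a gene.

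Values below 5 were raised to 5, and limits of 1.5-fold, 2-fold and 3-fold were used, the last after the study. No test was possible on 1 array for each tissue, and precision is limited by this number of arrays. The counting of genes past a fold was tested on simulated data. Members and 28 lists were chosen with earlier results of these data known. Named genes are the tissue forms and their partners, core subunits, members past 2-fold, the 3 per complex and direction with the largest differences, members whose probe sets disagree, and in other lists up to 3 genes with the largest differences and those past 3-fold. Others were named after their values were seen. Alternatives were other floors, scalings and choices of probe set. Python 3.11.15 with numpy 2.4.6, pandas 2.3.3 and matplotlib 3.10.9 was used.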

Additional observations from a re-analysis of the deposited data

How the results depend on the processing

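Cox7a1 stayed past 3-fold under the 3 scalings, with differences of 1.89 to 2.12. Floors and choices of probe set could not move it, since it has 1 bright probe set. The counts past 2-fold rest on genes near that limit. In the small intestine 2 genes passed 2-fold after median centring or quantile normalization (Cox7a1 and Uqcrc1) and 3 after centring on the hybridization spike-ins (also Atp5k). In the colon 0 passed after quantile normalization, where Ndufa6 had -0.97, or spike-in centring, where it had -0.77, 3 passed with the median over probe sets (Ndufa6, Atp5c1 and Uqcr10) and 4 without the probe sets marked _x, _s or _a (also Cox7c), which left 65 members and brought 2 genes past 3-fold, Cox7a1 and Atp5c1 (-1.86). At 1.5-fold the counts were 7 and 9. Spike-in centring moved the median of all members to 0.17, of complex I to 0.0077, of complex III to 0.28 and of the ATP synthase to 0.31, and that of the 2160 bright genes from -0.095 to 0.15. With the median over probe sets complex I had -0.043 and complex III -0.22, and without the marked probe sets -0.029 and -0.19. The median of complex II stayed positive and ran from 0.067 to 0.59 over the alternatives. Other floors and no floor changed no count past 2-fold or 3-fold. At a floor of 6, Ndufb1 had 0.12 and was no longer past 1.5-fold. The cause of these shifts was not tested. Among single members, 4 shifted by at least 0.60, the pooled SD over all genes, with the median over probe sets. Without the marked probe sets 6 of the 65 did. Of these 6, Ndufs7 had -0.062, while Ndufb5 (-0.57), Atp5pb (-0.64) and Ndufc1 (0.42) changed sign. Chosen after seeing the data, the same alternatives left the medians of the assembly factors of complexes I to III and of the hypoxia targets negative, between -0.17 and -0.65. With 1 array per tissue, variation between mice is not measured.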
